A study of Mus musculus with 9 samples.

Results

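Mas-related receptors are G-protein-coupled receptors that small sensory neurons of the dorsal root ganglion (DRG) use to detect pruritogens, peptides and small metabolites. The genes examined were Mrgprd, Mrgpra3, Mrgprb4, Mrgprb5, Mrgpre and Mrgprf, chosen by name. Probes were sought by gene symbol, older symbol or RefSeq accession, and 4 of the 6 genes had one. All 4 passed the filter on dim probes and were among the 20898 genes tested. No probe was matched to Mrgprd or Mrgprb4, and these were not analysed here.

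The samples were RNA of L3/L4 DRG of adult mice, 4 uninjured and 5 taken 3 days after sciatic nerve transection. Every sample in both groups carried the labels cre.neg and jun.wt, which name neither the Cre driver nor the targeted allele, and strain was not given in the sources used here. Each of the 9 arrays set a Cy5-labelled DRG sample against Cy3-labelled universal mouse reference RNA (Stratagene), in the same dye orientation throughout. A level below is the log2 ratio of Cy5 over Cy3 after background correction and loess, and a change is the injured mean minus the uninjured mean of that ratio. The 3-day interval and the transection are those of the labels and methods, while the study's results text gives a shorter interval and a figure legend a crush. The methods take uninjured DRG from the opposite side of the same mice for nerve crush and do not say so for the arrays. The labels identify no animals, so p-values measure the spread between these samples.

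Mrgprd is the β-alanine receptor and marks nonpeptidergic nociceptors that end in the epidermis. Mrgpra3 is the chloroquine receptor of a class of itch neurons, and Mrgprb4 marks C-fibres that respond to stroking of hairy skin. The transcription factor Runx1 regulates several of these genes, and the receptors excite neurons through G proteins and TRP channels.

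Each of the 4 genes was measured by 1 probe and 1 spot per array. The probe coordinates in the files are on build mm7, for which no annotation was given, so exon and UTR positions are not stated. All lie on chromosome 7. The Mrgpra3 probe (accession NM_153067) spans chr7:43809307-43809366 and the Mrgprb5 probe (NM_207538) chr7:44388638-44388697, both on the minus strand. The Mrgpre probe (NM_175534) spans chr7:140206170-140206229 on the minus strand and the Mrgprf probe (NM_145379) chr7:141737148-141737207 on the plus strand. By the scanner software's flag, both Cy5 and Cy3 were well above background on all 9 arrays for each of them.

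Part of the family consists of tandem copies of like sequence, which bears on what a probe can separate. Of the 6 genes, 4 had a window of 300 bases around the gene start in the RefSeq table (GRCm38.p6, 250 bases before and 50 after). The windows of Mrgprb5 (chr7:48168936-48169235, minus strand) and of the unmeasured Mrgprb4 (chr7:48199129-48199428, minus strand) were identical at 246 of 300 positions (82.0%), with 54 substitutions and no gap. They are shown as an example of that likeness, with capitals at the positions that differ, and do not measure likeness at the probes. Both gene models begin at the start codon, so the last 50 bases of each are coding sequence.
Mrgprb5: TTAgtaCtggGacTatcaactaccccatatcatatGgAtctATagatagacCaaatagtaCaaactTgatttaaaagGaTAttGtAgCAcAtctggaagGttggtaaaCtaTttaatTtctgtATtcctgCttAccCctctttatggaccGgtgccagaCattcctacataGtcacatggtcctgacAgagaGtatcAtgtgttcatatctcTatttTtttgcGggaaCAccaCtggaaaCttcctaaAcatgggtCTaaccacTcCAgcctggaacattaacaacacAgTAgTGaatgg
Mrgprb4: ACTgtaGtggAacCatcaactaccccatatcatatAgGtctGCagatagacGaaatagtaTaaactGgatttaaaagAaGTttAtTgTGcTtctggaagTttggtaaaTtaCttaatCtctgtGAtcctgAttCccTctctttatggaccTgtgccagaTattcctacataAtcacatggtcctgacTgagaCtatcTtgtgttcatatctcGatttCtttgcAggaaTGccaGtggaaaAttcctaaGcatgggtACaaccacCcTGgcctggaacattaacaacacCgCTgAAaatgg

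The window of Mrgpre, a family member outside these tandem copies, is shown in lower case for contrast (chr7:143784451-143784750, minus strand).
Mrgpre: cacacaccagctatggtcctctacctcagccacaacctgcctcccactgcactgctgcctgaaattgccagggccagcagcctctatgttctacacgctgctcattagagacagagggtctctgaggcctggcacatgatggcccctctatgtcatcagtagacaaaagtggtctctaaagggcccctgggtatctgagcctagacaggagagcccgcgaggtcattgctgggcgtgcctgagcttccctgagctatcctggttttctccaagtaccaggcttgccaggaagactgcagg

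Outside the chosen genes, Mrgpra2b and Mrgpra2a had windows identical at all 300 of 300 positions. The files used here hold no probe sequences, so how far the Mrgprb5 probe also binds Mrgprb4 RNA, or the Mrgpra2b probe Mrgpra2a RNA, was not tested. Letters of the Runx motif were searched on both strands as AACCAC and as TGTGGT, which overlap in a full site. AACCAC was in the windows of Mrgprb5 and Mrgprb4, in both within the last 50 bases, which are coding sequence, and in 13.0% of all 32851 windows. TGTGGT was in 0 of the 4 windows and in 16.8% of all windows. Mrgpra3 and Mrgprf had no window. The windows of Mrgprb5 and Mrgprb4 are placed on the start codon and need not hold the start of transcription. Runx sites outside the windows were not searched, so the counts do not show whether these genes have such sites.

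The labels were first checked against genes known to respond to axotomy. All 8 tested genes of that list were higher after injury, with a median change of 3.20, and the transcription factor Atf3 changed by 5.14 (SE 0.0685, limma adjusted p = 2.71e-11). All 12 genes of a pan-neuronal list were well above background in Cy5 on every array. The median Cy5 signal lay between 156 and 238 over the arrays, and their number limits the precision. Slide 1 held uninjured array 1 and injured arrays 1, 2 and 5, slide 2 the other uninjured arrays and slide 3 injured arrays 3 and 4, so slide and injury overlap in large part. Skeletal muscle genes stood apart on injured arrays 2 and 4, where their list mean lay 2.09 and 3.49 above the uninjured mean.

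After injury, Mrgpra3 and Mrgprb5 fell, Mrgprf rose slightly and no change in Mrgpre was detected. Of the 4 genes tested, 3 passed an adjusted p of 0.05, against 25.4% of all genes. Among them 2 fell, where 14.0% of all genes fell, and 1 rose, where 11.4% of all genes rose. The injured and uninjured arrays did not overlap for 2 of the 4, against 23.9% of all genes. The median change of the 4 was −0.45, beside 0.001 over all genes tested. In whole-ganglion RNA, fewer cells of a type and less RNA per cell cannot be told apart.

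**Figure D1:**
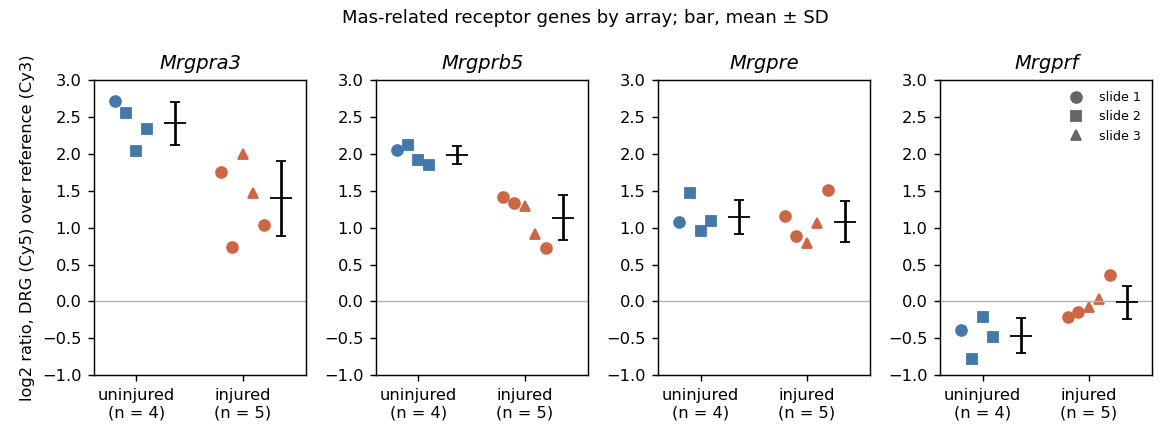
Log2 ratio of DRG (Cy5) over reference (Cy3) for the 4 genes, 1 point per array, with symbols for the 3 slides and bars for the mean ± SD of 4 uninjured and 5 injured arrays. Injured arrays lie below every uninjured array for Mrgpra3 and Mrgprb5, the groups are mixed for Mrgpre, and for Mrgprf they meet near −0.21.

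Mrgpra3 was the itch receptor measured here. Its log2 ratios on uninjured arrays 1 to 4 were 2.71, 2.55, 2.04 and 2.33. On injured arrays 1 to 5 they were 1.75, 0.74, 1.99, 1.46 and 1.03. Every injured array lay below every uninjured array, although the nearest pair, injured array 3 and uninjured array 3, differed little. Uninjured DRG averaged 2.41 ± 0.29 (SD, n = 4), against 1.39 ± 0.51 (SD, n = 5) after injury. The change was −1.01 (SE 0.241, 95% interval −1.55 to −0.48) with a limma adjusted p of 0.0112, so the ratio fell by 50.5%. An exact permutation test, two-sided and run over every split of the arrays, gave p = 0.0159. By size the fall ranked 83 from the lowest among the 20898 changes. The lowest Mrgpra3 values, on injured arrays 2 and 5, came with the highest injured means of several other lists. Set against the uninjured mean, red blood cell genes were at 1.57 and 1.11 on these arrays and from −0.06 to 0.68 on the other injured arrays. Macrophage genes were at 0.82 and 0.96 there and from 0.04 to 0.36 on the others. Among injured arrays, satellite glia (0.24 and 0.55), fibroblast (0.40 and 0.77) and mast cell genes (0.43 and 1.20) were also highest there. Pan-neuronal genes were at −0.02 and 0.15 on these arrays and from −0.21 to −0.01 on the other injured arrays. Without both arrays Mrgpra3 changed by −0.67 (limma adjusted p = 0.0225), and the part of non-neuronal cells in its fall was not tested.

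The reference channel of the Mrgpra3 probe also moved. Cy3 holds the same reference RNA on every array, yet its mean spot signal was between 84.0 and 103 on uninjured and between 50.7 and 68.5 on injured arrays. The local Cy3 background of this probe was between 36 and 42, so its reference signal on injured arrays was near background. With each channel normalised alone, Cy3 changed by −0.54 (SE 0.0851, limma adjusted p = 0.0437) and Cy5 by −1.50 (limma adjusted p = 0.0104). Mrgpra3 was 1 of 33 genes (0.158%) called in the Cy3 channel. What moved the reference signal was not tested. The scanner software's own ratio gave a change of −0.23 for Mrgpra3 (limma adjusted p = 0.407), so the size of the fall depended on how the ratio was made.

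**Figure D2:**
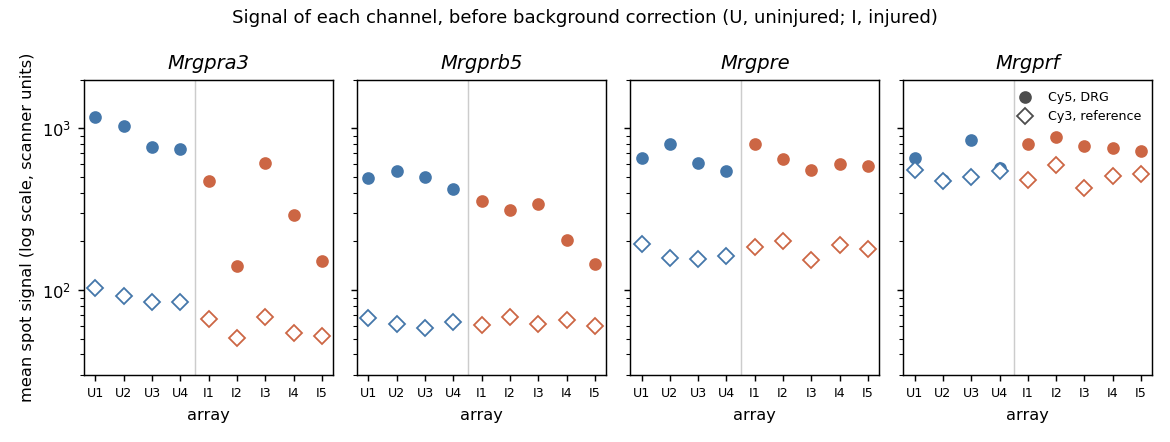
Mean spot signal in scanner units on a log axis, before background correction, for Cy5 (filled circles) and Cy3 (open diamonds) on each array, U for uninjured and I for injured. For Mrgpra3 the Cy3 diamonds drop from 84.0–103 to 50.7–68.5 together with Cy5, while for Mrgprb5 they stay between 58.5 and 67.8.

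Mrgprb5, the close relative of Mrgprb4, had log2 ratios of 2.04, 2.12, 1.92 and 1.85 on uninjured arrays 1 to 4. On injured arrays 1 to 5 they were 1.41, 1.34, 1.29, 0.91 and 0.72. The groups were well separated, with a gap wider than the whole uninjured range. Uninjured DRG averaged 1.98 ± 0.12 (SD, n = 4), against 1.14 ± 0.30 (SD, n = 5) after injury. The change was −0.85 (SE 0.140, 95% interval −1.16 to −0.54) with a limma adjusted p of 0.00146, so the ratio fell by 44.5%. The exact permutation p was 0.00794, the smallest these group sizes allow. Its Cy3 signal stayed between 58.5 and 67.8 on all arrays, and Cy5 alone gave a change of −0.80 (limma adjusted p = 0.00365). The local Cy3 background of this probe was between 36 and 43, so its reference signal too was near background. With an offset of 0 the change was −1.17 (limma adjusted p = 0.00255), so its size depended on the offset.

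Mrgpre, an orphan receptor, had log2 ratios of 1.07, 1.47, 0.95 and 1.08 on uninjured arrays 1 to 4. On injured arrays 1 to 5 they were 1.16, 0.89, 0.79, 1.06 and 1.51. High and low arrays were mixed between the groups, and injured array 5 was the highest of all. The change was −0.06 (SE 0.148, 95% interval −0.39 to 0.27, limma adjusted p = 0.808). The exact permutation p was 0.714. The interval covers small changes in either direction.

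Mrgprf, an orphan receptor first described as RTA from rat thoracic aorta, had log2 ratios below 0 in uninjured DRG. They were −0.39, −0.78, −0.21 and −0.47 on uninjured arrays 1 to 4. On injured arrays 1 to 5 they were −0.22, −0.14, −0.08, 0.03 and 0.36. The groups met, with injured array 1 level with uninjured array 3. Uninjured DRG averaged −0.47 ± 0.24 (SD, n = 4), against −0.01 ± 0.22 (SD, n = 5) after injury. The change was 0.46 (SE 0.134, 95% interval 0.16 to 0.75), or 37.1% more, with a limma adjusted p of 0.0302 and an exact permutation p of 0.0238. The call was lost without injured array 4 (limma adjusted p = 0.064) and without uninjured arrays 1, 2 or 4 in turn (limma adjusted p = 0.0554, 0.0781 and 0.0678).

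Genes of smooth muscle and pericytes shared their highest and lowest arrays with Mrgprf. Their list mean, set against the uninjured mean, was highest on injured arrays 5 (1.21) and 4 (0.82), as was Mrgprf, and lowest on uninjured array 2 (−0.45), as was Mrgprf. Its range was −0.45 to 0.41 on uninjured and −0.06 to 1.21 on injured arrays. Of its 10 genes 9 had a higher mean after injury and 0 were called by limma, all 10 being above background on every array. The list was at 0.41 and 0.315 on uninjured arrays 3 and 4, above injured arrays 2 (−0.06) and 3 (0.0024). Mrgprf was lower on those uninjured arrays than on those injured arrays. Fibroblast genes ranged from −0.47 to 0.58 on uninjured and from 0.00 to 0.77 on injured arrays, with 0 of 8 called. Macrophage, fibroblast and mast cell genes too were lowest on uninjured array 2 (−0.42, −0.47 and −0.65). These lists were highest on injured array 5 (0.96, 0.77 and 1.20). The genes whose log2 ratios over the 9 arrays were most like those of Mrgprf, among 16465 genes with a symbol, were the collagen gene Col6a3 (r = 0.965), the myeloid integrin gene Itgax (r = 0.959) and Gvin1 (r = 0.958). Itgax changed by 0.34 (limma adjusted p = 0.0196) and Col6a3 by 0.47 (limma adjusted p = 0.0922). Those correlations include the injury contrast. By deviations from the group means, which removes it, the genes most like Mrgprf were Atp10d (r = 0.971), Zc3h11a (r = 0.967) and Cox7a2 (r = 0.966). The part of smooth muscle, fibroblast and immune cells in the rise of Mrgprf was not tested.

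The slides were then taken into account. Within slide 1 alone, where 1 uninjured array met 3 injured arrays, Mrgpra3 changed by −1.54, Mrgprb5 by −0.89, Mrgpre by 0.11 and Mrgprf by 0.39, with no test. With slide as a fixed block, limma gave an adjusted p of 0.05 for Mrgpra3, 0.0989 for Mrgprb5, 0.85 for Mrgpre and 0.425 for Mrgprf. Thus 0 of the 4 were called, where that fit called 1181 of 20897 genes. Taken instead as a random block, slide had an estimated correlation of −0.207. Here 3 of the 4 were called, at limma adjusted p = 0.00359 for Mrgpra3, 0.000222 for Mrgprb5 and 0.00516 for Mrgprf. That fit called 7412 of 20898 genes. Its standard errors for these 3 genes were 0.199, 0.11 and 0.105, smaller than the 0.241, 0.14 and 0.134 as reported. Slides 2 and 3 each held a single group and gave no value.

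A comparison with genes that all neurons use asked whether the receptors moved with total neuronal RNA. The 12 pan-neuronal genes, such as Uchl1 and Rbfox3, had a mean change of −0.04. Of them 2 fell, against 14.0% of all genes, namely Syt1 (−0.31, limma adjusted p = 0.0288) and Elavl4 (−0.28, limma adjusted p = 0.00819). Relative to their mean on the same array, Mrgpra3 changed by −0.97 (exact permutation p = 0.0317) and Mrgprb5 by −0.80 (exact permutation p = 0.0159). Mrgpre changed by −0.02 on that scale (exact permutation p = 0.937) and Mrgprf by 0.50 (exact permutation p = 0.0159). After adjustment over these 4 comparisons the exact permutation p was 0.0423 for Mrgpra3 and 0.0317 for both Mrgprb5 and Mrgprf. Without single arrays it rose to at most 0.0762 for these 3 genes, where fewer splits are available.

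The changes of the 4 genes were also set against each other in 6 pairs. Mrgpra3 and Mrgprb5 differed in change by −0.16 (exact permutation p = 0.698), less than the spread between arrays. The other 5 pairs each differed, with exact permutation p between 0.00794 and 0.0317, all 0.0381 after adjustment over the 6 pairs. Within the groups, Mrgpra3 and Mrgprb5 did not track each other closely. Injured array 2 was the lowest for Mrgpra3 (0.74) but among the higher ones for Mrgprb5 (1.34). The correlation of their deviations from the group means was 0.365 over 9 arrays, given as a description.

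Of other family members, 9 had a probe and 4 passed the filter on dim probes. Mrgpra2b, from the tandem copies beside Mrgpra3, was the only 1 of these 4 called. Its log2 ratios were 2.32, 2.26, 2.37 and 2.07 on uninjured arrays 1 to 4. On injured arrays 1 to 5 they were 1.69, 0.58, 1.40, 1.33 and 0.79. All injured arrays lay below the uninjured arrays, and injured arrays 2 and 5 were the lowest, as they were for Mrgpra3. The change was −1.10 (SE 0.202, limma adjusted p = 0.00272). It was −1.30 with slide as a fixed block, where the call was lost (limma adjusted p = 0.0747), and without injured arrays 2 and 5 it was −0.78 (limma adjusted p = 0.00114). Its deviations from the group means had a correlation of 0.791 with those of Mrgpra3 over 9 arrays.

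The Cy3 signal of Mrgpra2b was well above background on 6 of 9 arrays. Its mean Cy3 signal was 58.9 to 66.7 on uninjured and 46.7 to 62.4 on injured arrays, and Cy3 alone changed by −0.22 (limma adjusted p = 0.364). The scanner software's own ratio changed by −0.01 (limma adjusted p = 0.971), while Cy5 alone changed by −1.30 (limma adjusted p = 0.0074). Why these ratios differed was not tested. Mrgprb3 changed by −0.26 (limma adjusted p = 0.0815), and by −0.89 with the scanner software's own ratio (limma adjusted p = 0.00405), −0.52 with an offset of 0 (limma adjusted p = 0.0479) and −0.34 with no background correction (limma adjusted p = 0.025). Mas1, the angiotensin-(1–7) receptor, changed by −0.15 (limma adjusted p = 0.164) and Mrgprg by 0.05 (limma adjusted p = 0.572). Mrgpra1, Mrgpra4, Mrgprb1 and Mrgprh were above background in Cy5 on 0 of 9 arrays. Mrgprb2, the mast cell receptor for basic secretagogues, was above background on 3 of 9 arrays, too few to be tested.

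Mrgprd itself was not measured, so the genes of the neurons it marks were examined instead. Of 16 tested, 11 fell, 2 rose and 3 were not called, with a median change of −0.55. The counts were 6 fell and 0 rose with slide as a fixed block and 5 fell and 2 rose with the scanner software's own ratio, and with median centring 10 fell and 0 rose. For this list and those that follow, the shares of all genes as reported were 14.0% fallen and 11.4% risen. With slide as a fixed block 1181 of 20897 genes were called, 629 of them risen. Median centring called 2660 of 20898, 980 of them risen, and the scanner software's own ratio 4465, 2114 of them risen. The angiotensin receptor gene Agtr1a fell by 1.16 (SE 0.134, limma adjusted p = 0.000155). The lysophosphatidic acid receptor gene Lpar3 changed by −1.07 and the kainate receptor gene Grik1 by −1.05 (limma adjusted p = 0.00443 and 0.000926). Gfra2, the neurturin coreceptor, changed by −0.75 (limma adjusted p = 0.00142), while its signalling partner Ret rose by 0.27 (limma adjusted p = 0.0156). P2rx3, the ATP-gated channel of the same neurons, changed by 0.16 (limma adjusted p = 0.115). The list mean lay between −0.08 and 0.16 on uninjured and between −0.74 and −0.30 on injured arrays, with no overlap.

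The list of Mrgpra3-type and Nppb-type itch neuron genes, which pools both classes and leaves out Mrgpra3 itself, included more rises than falls. Of 17 tested, 7 rose, 2 fell and 8 were not called, with a median change of 0.28. When slide was a fixed block, 4 rose and 0 fell. The neuropeptide gene Nts rose by 2.58 (SE 0.0822, limma adjusted p = 1.7e-08). The cytokine receptor genes Il4ra (1.30), Il13ra1 (0.83), Il31ra (0.71), Osmr (0.31) and Crlf2 (0.27) rose (limma adjusted p = 0.0022, 4.87e-05, 0.000294, 0.0146 and 0.0245). Il4ra, Il13ra1, Osmr and Crlf2 are also used by immune or glial cells. Gfra1, a GDNF coreceptor, rose by 0.98 (limma adjusted p = 0.00426). Sst (−0.82) and the histamine receptor gene Hrh1 (−0.41) fell (limma adjusted p = 0.00404 and 0.00821), and Nppb changed by 0.28 (limma adjusted p = 0.38). In the same samples macrophage genes had a median change of 0.47. Of 12 tested, 2 were called higher, against 11.4% of all genes, namely Aif1 (0.90, limma adjusted p = 0.00761) and Itgam (0.50, limma adjusted p = 0.0334). The part of these cells in the rise of the cytokine receptors was not tested.

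**Figure D3:**
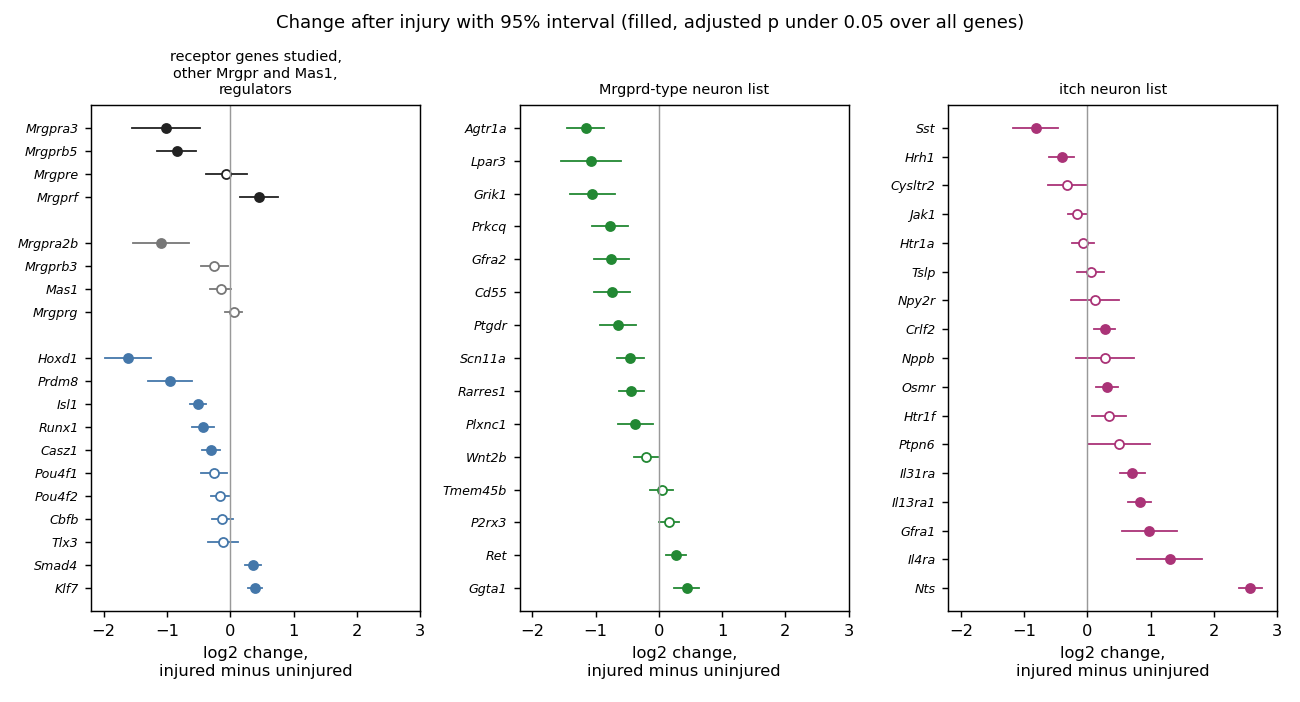
Change in log2 ratio, injured minus uninjured, with its 95% interval for the receptor genes, the other family members, transcriptional regulators and the marker lists of Mrgprd-type and itch neurons. Filled points passed an adjusted p of 0.05 in the limma fit over all genes, including 7 rises among 17 itch neuron genes, and 1 gene of the Mrgprd-type list is not drawn.

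Genes of C-type low-threshold mechanoreceptors, the touch fibres of hairy skin, included 4 falls and 0 rises among 9 tested, and 1 fall with slide as a fixed block. These were P2ry1 (−0.80, limma adjusted p = 0.00345), Bhlha9 (−0.74, limma adjusted p = 8.2e-05), Tafa2 (−0.63, limma adjusted p = 0.00249) and Zfp521 (−0.53, limma adjusted p = 0.00435). Th, the dopamine-synthesis enzyme that marks these fibres, changed by −0.15 (limma adjusted p = 0.294). By mean, 7 of the 9 genes were lower after injury and 2 higher. The higher ones were Slc17a8 (0.25) and Tafa4 (0.16), neither called (limma adjusted p = 0.439 and 0.36). Peptidergic nociceptors had 3 falls and 1 rise among 9 genes and a median change of −0.15, which was 0.06 with the scanner software's own ratio, and 0 calls with slide as a fixed block. Myelinated sensory neurons had 3 falls and 0 rises among 10 genes and a median change of −0.11, with 1 fall when slide was a fixed block and 5 under median centring.

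**Figure D4:**
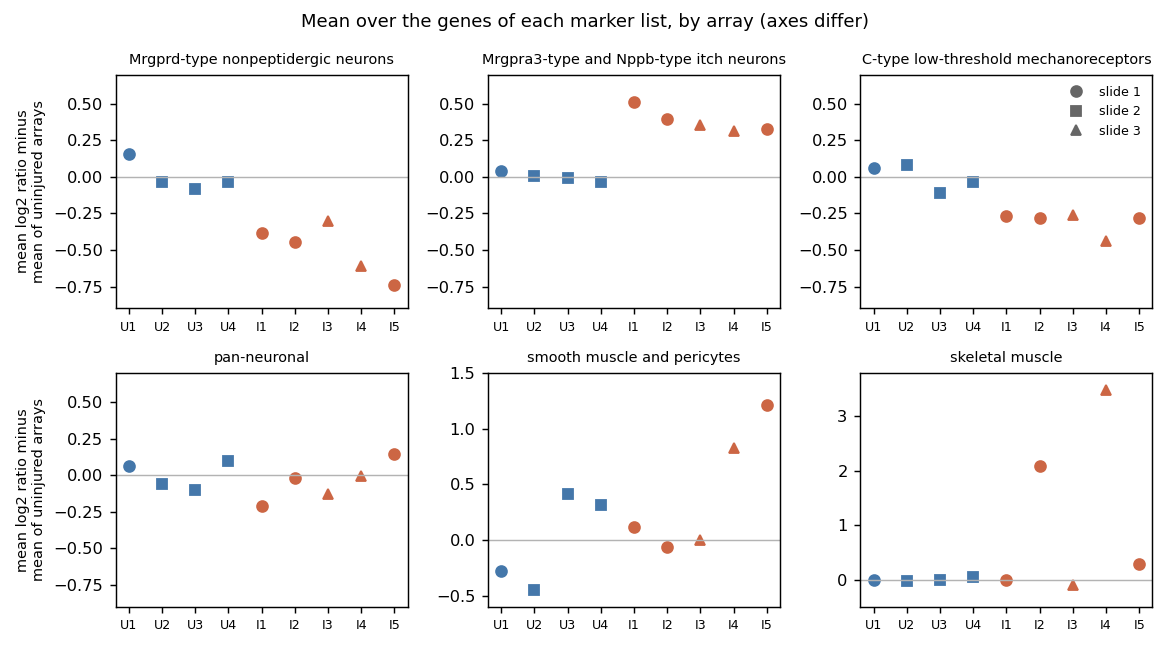
Mean log2 ratio over the genes of 6 marker lists on each array, set against the mean of the uninjured arrays, with symbols for slides and a different axis for each muscle list. Mrgprd-type genes range from −0.74 to −0.30 on injured arrays and pan-neuronal genes from −0.21 to 0.15, and skeletal muscle genes reach 3.49 on injured array 4.

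Regulators of this neuronal lineage were examined next. Runx1 changed by −0.43 (SE 0.0756, limma adjusted p = 0.00207), with no overlap between the groups, and by −0.21 as the average of its probes (limma adjusted p = 0.0266). Its call was lost with slide as a fixed block (−0.48, limma adjusted p = 0.0865). Its partner Cbfb changed by −0.12 (limma adjusted p = 0.274). Hoxd1, a homeobox gene of nociceptors, fell by 1.61 (SE 0.163, limma adjusted p = 6.55e-05), Prdm8 by 0.96 (limma adjusted p = 0.00143) and Isl1, a sensory neuron homeobox gene, by 0.51 (limma adjusted p = 0.000125). In all, 5 of 11 regulators fell and 2 rose, the latter being Klf7 (0.39) and Smad4 (0.36), with limma adjusted p = 0.000397 and 0.00085. Blocked by slide, 3 fell and 0 rose, and with median centring 4 fell and 0 rose.

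Of 20 genes that act downstream of the receptors, 8 fell, 4 rose and 8 were not called. Blocked by slide, 1 fell and 2 rose, and with median centring 5 fell and 2 rose. Plcb3, a phospholipase C of small sensory neurons, fell by 0.77 (SE 0.116, limma adjusted p = 0.000863). The G protein subunit genes Gnaq (−0.44), Gnai1 (−0.46) and Gnao1 (−0.30) fell (limma adjusted p = 0.0124, 0.000734 and 0.00447). Itpr1, the calcium release channel gated by the product of phospholipase C, rose by 2.02 (SE 0.117, limma adjusted p = 1.28e-06). Arrb1, encoding an arrestin that desensitises receptors, rose by 0.80 (limma adjusted p = 4.05e-05), whereas Arrb2 fell by 0.31 and the receptor kinase gene Grk2 by 0.54 (limma adjusted p = 0.00514 and 0.00108). Trpa1, the channel through which Mrgpra3 excites itch neurons, changed by −0.12 (limma adjusted p = 0.604). Among 7 precursors of candidate peptide ligands, 1 rose (Pomc, 0.56, limma adjusted p = 0.00126) and 0 fell, against 11.4% and 14.0% of all genes. With slide as a fixed block 0 were called.

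Across arrays, the genes most like Mrgpra3 by Pearson correlation of log2 ratios, among 16465 genes with a symbol, were Dgkk and Rgs8 (both r = 0.968) and Camk2a (r = 0.967). For Mrgprb5 they were Klhl29 and Cd55 (both r = 0.986) and Patl2 (r = 0.984), of which Cd55 is on the list of Mrgprd-type genes and fell by 0.74 (limma adjusted p = 0.00174). For Mrgpre they were Apbb3, Atg13 and Fkbp4, with r between 0.983 and 0.984. These coefficients are over 9 arrays that share the injury contrast and the processing, so they are a description only. Taken as deviations from the group means, which removes the injury contrast, the gene most like Mrgpra3 was Rgs8 (r = 0.957) and the gene most like Mrgprb5 was Klhl29 (r = 0.984).

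Finally, the changes were recomputed under other ways of processing. The change of Mrgpra3 ranged from −1.54 to −0.23 over 24 alternatives and that of Mrgprb5 from −1.17 to −0.75. Mrgpre ranged from −0.17 to 0.11 and Mrgprf from 0.34 to 0.54. Without injured arrays 2 and 5 together, Mrgprb5 changed by −0.78 (limma adjusted p = 0.00244).

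**Figure D5:**
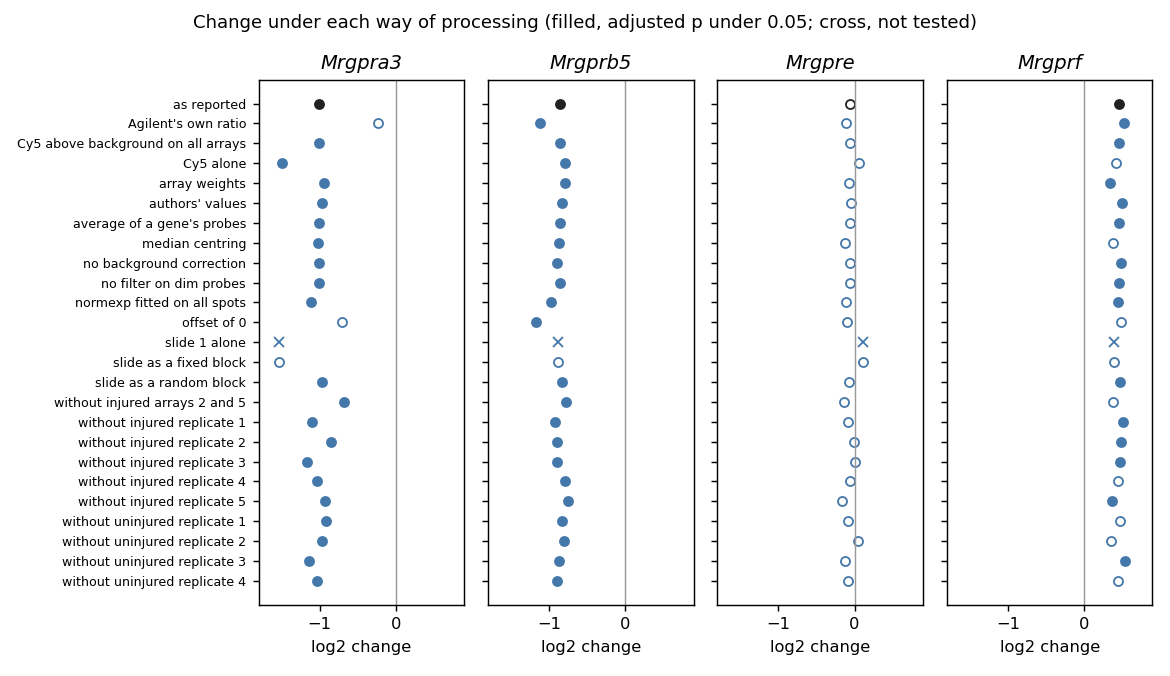
Log2 change of the 4 genes under each way of processing, 1 line per setting, with filled points at an adjusted p under 0.05, open points above it and crosses where no test was made. Mrgprb5 keeps its place between −1.17 and −0.75, Mrgpra3 spreads from −1.54 to −0.23, and Mrgpre sits on both sides of 0.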

How the data were processed

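RNA of L3/L4 DRG was measured on 9 two-channel Agilent arrays, 4 uninjured and 5 injured. The intensity values, as deposited, are the scanner's mean spot brightness and median local background for each channel. Per the file headers, Agilent Feature Extraction wrote log10 ratios after its own background and dye correction. A table of processed log2 values by the authors (Cy5 relative to Cy3) had slopes between 0.985 and 0.994 against the ratios computed here. Their medians lay between 0.0202 and 0.024, and the exact centring is not given in the sources used here. The submitters' processing notes name limma.

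The software was R 4.3.3 and limma 3.58.1. Normexp background correction (offset 50) was fitted without spots of non-uniform local background (20 on injured array 2), and loess was run within each array. Outlier spots were left out and repeated spots averaged. A probe had to be above background in Cy5 on 4 or more of 9 arrays, with the brightest probe per gene, giving 20898 genes. Of 41174 probes, names came by accession for 22951, by symbol for 6659 and by older symbol for 3109, and 8455 kept the name in the file. The groups were tested by limma, with Benjamini-Hochberg adjustment over all genes and a threshold of 0.05, and single values by a two-sided exact permutation test. The procedure was tested on simulated data. The values of 1 listed gene, which stays in the counts, are not reported here.

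The genes, the lists and the processing were chosen with earlier results of these data known. Named genes are the receptors, their relatives and all genes of the neuron, regulator, transduction and ligand lists, the largest called changes of other lists, Atf3, and the genes most like each receptor. Uchl1, Rbfox3 and the windows shown were picked as examples. Alternatives were other background corrections, offsets and normalizations, each channel alone, the authors' values, other filters, slide as a block, array weights, probe averages, a fold threshold and leaving out arrays. The Cy3 channel alone, slide 1 alone and the fit without injured arrays 2 and 5 were added after the data were seen.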

Additional observations from a re-analysis of the deposited data

Results flagged for a closer look

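Among 54 sets of arrays, each a gene or list within 1 group, 1 held an array that stood apart from the rest by Dixon's test, which chance gives for about 1 in 20. The mean of the C-type low-threshold mechanoreceptor list was −0.44 on injured array 4, against −0.28 on the nearest other array. Without injured array 4 the other injured arrays lay between −0.28 and −0.26.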

How the results depend on the processing

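The falls of Mrgpra3 and Mrgprb5 kept their direction under all 24 alternatives. Mrgpra3 missed the threshold with Agilent's own ratio (−0.23), an offset of 0 (−0.71) and slide as a fixed block (−1.54), and Mrgprb5 with slide as a fixed block (−0.89). Mrgprf missed it with Cy5 alone (0.42), median centring (0.38), slide as a fixed block (0.39) and without injured arrays 2 and 5 (0.38). Mrgpre turned positive with Cy5 alone (0.057), on slide 1 alone (0.11) and with slide as a fixed block (0.11), and relative to the pan-neuronal genes with Cy5 alone (0.16) and median centring (0.023). The cause was not tested.

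Leaving out each array in turn, the change of Mrgpre ranged from −0.17 to 0.047 and that of Mrgprf from 0.35 to 0.54. Relative to the pan-neuronal genes it ranged from −1.14 to −0.80 for Mrgpra3, from −0.92 to −0.65 for Mrgprb5, from −0.080 to 0.11 for Mrgpre and from 0.41 to 0.62 for Mrgprf. In that test 7 of the 9 omissions lifted the adjusted exact permutation p over 0.05 for Mrgpra3, Mrgprb5 and Mrgprf alike.

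Of all genes, 5316 were called as reported, 2660 with median centring, 1181 with slide as a fixed block, 7412 with it as a random block, 6352 with array weights and 1241 with an added change of over 1.5-fold. Of the 4 receptor genes, 3 were called as reported, 0 with slide as a fixed block and 3 with it as a random block. No paired analysis was possible because nothing ties an injured sample to an uninjured one. The Cy3 signal of Mrgpra2b was well above background on 6 of 9 arrays, which limits its ratio.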

Other observations

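Mast cells, some of which carry Mrgprb2, are among the few other cells known for Mas-related receptors. Of 7 mast cell genes tested, 1 rose (Hdc, histidine decarboxylase, 1.26, limma adjusted p = 5.94e-05) and 1 fell (Kit, −0.49, limma adjusted p = 0.0082), and Kit is also a gene of peptidergic neurons. The protease genes Cma1 (0.62), Mcpt4 (0.37) and Cpa3 (0.15) were not called (limma adjusted p = 0.567, 0.689 and 0.856). Ms4a2, a defining mast cell gene, was above background on 0 of 9 arrays. The list mean ranged from −0.65 to 0.50 on uninjured and from −0.33 to 1.20 on injured arrays. Satellite glia had 2 rises among 8 genes, Glul (0.78, limma adjusted p = 0.000132) and Slc1a3 (0.22, limma adjusted p = 0.0362). Over all genes, 11.4% rose and 14.0% fell. Myelinating Schwann cell, skeletal muscle and red blood cell lists had 0 called genes of 8, 8 and 4 by limma, with medians of 0.12, 1.17 and 0.71.

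In the Cy3 channel alone, where the RNA is the same on all arrays, 33 genes were called by limma and 2011 of 20898 had an unadjusted p under 0.05. The other 3 receptor genes changed there by 0.02 (Mrgprb5), 0.11 (Mrgpre) and −0.01 (Mrgprf), with limma adjusted p = 0.809, 0.32 and 0.858.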
